A study of Rattus norvegicus with 20 samples.

Results

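The miRNAs rno-miR-124, rno-miR-132, rno-miR-212, rno-miR-137, rno-miR-138, rno-miR-7a, rno-miR-153 and rno-miR-218, all known from neurons, were followed across 20 arrays of rat soleus muscle and dorsal root ganglia (DRGs, the clusters of sensory neuron cell bodies beside the spinal cord). They were chosen by name, without their star strands, and are 8 of the 350 miRNAs on the array. All RNA came from male Sprague-Dawley rats in a study that asked whether compression of the sciatic nerve alters miRNAs differently from its transection. In the denervation group the sciatic nerve had been cut and a segment removed, and tissue was taken at 6 months. In the entrapment group a non-constrictive silastic tube had lain around the nerve for 6 months, and in the decompression group such a tube was removed after 6 months and tissue was taken 3 months later. Each injury group had 3 arrays per tissue. The sham operated control had 1 array per tissue, which makes it the weakest point of every comparison with sham. The study's text gives 3 rats for the sham group as well, and whether the single array held RNA of 1 rat or of several is not given in the sources used here. The labels number the 3 arrays of an injury group as experimental replicates without naming animals, so p-values measure the spread between these arrays. Every comparison with sham in a tissue used the same sham array.

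A miRNA is a short RNA that pairs with messenger RNAs, mainly through the seed near its 5′ end, and lowers their translation or stability. miR-124 is among the most abundant miRNAs of neurons and is a textbook marker of neuronal differentiation. miR-132 and miR-212 are made from 1 cluster that the transcription factor CREB switches on with neuronal activity. miR-138 acts in dendritic spines and axon growth, miR-137 and miR-153 in neuronal development and synapses, miR-7a in neurons and neuroendocrine cells, and miR-218 is best known from motor neurons.

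The mature sequences show which of these miRNAs can share targets and which could be confused by a probe, with the seed (bases 2 to 8 from the 5′ end) in capitals. RefSeq entries on build GRCr8 matched 7 of the 8 names, taking the arm that carries the name without a star.

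rno-miR-212-3p: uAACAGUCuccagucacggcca
rno-miR-132-3p: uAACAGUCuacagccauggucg
rno-miR-137-3p: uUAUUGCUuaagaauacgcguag
rno-miR-138-5p: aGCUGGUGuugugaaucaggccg
rno-miR-7a-5p: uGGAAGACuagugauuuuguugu
rno-miR-153-3p: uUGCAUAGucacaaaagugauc
rno-miR-218a-5p: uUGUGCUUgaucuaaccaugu

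miR-212 and miR-132 were the only pair of these 7 with the same seed, and the 7 sequences held 6 different seeds. Both lie on the plus strand of chromosome 10, at chr10:60521811-60521832 for miR-212 and chr10:60522091-60522112 for miR-132, with 258 bases between them. They are identical over the first 9 bases and at 17 of their 22 positions. miR-137 lies at chr2:209165767-209165789 and miR-153 at chr6:144306646-144306667, both on the plus strand, while miR-138, miR-7a and miR-218 each have 2 loci with the same mature sequence.

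The files hold a background-subtracted total signal and a detection call per miRNA and array. Of the 348 miRNAs with 1 name in every file, a median of 148.5 were detected on a soleus array and a median of 195 on a DRG array. Signals were scaled to the 75th percentile of each array within a tissue and are given as scaled signal in array units, and differences are given on the log2 scale. Testing required detection on 3 or more of a tissue's 10 arrays, which left 6 of the 8 members among 219 tested miRNAs in the DRGs and 3 of the 8 among 173 in soleus. A call means a Benjamini-Hochberg adjusted p under 0.05 in limma. Defining miRNAs fitted the labelled tissues. On 1 scale over all 20 arrays, 4 of 5 muscle miRNAs were lower in the DRGs, among them miR-133b by 7.39 on the log2 scale. The sensory neuron cluster of miR-183, miR-96 and miR-182 was detected on 10 of 10 DRG arrays each. In soleus these 3 were detected on 0, 1 and 2 arrays. All 3 were higher in the DRGs, miR-183 at least 144-fold, which restates that detection. The arrays also fell into sets that follow the groups. Of 45 control features, which hold no rat miRNA, 24 in the DRGs and 12 in soleus had all values of the sham and denervation arrays on one side and all values of the other 6 arrays on the other. Differences between these sets of arrays cannot be told apart from array handling. In bulk tissue, fewer cells of a type and less RNA per cell cannot be told apart either. In the DRGs, a second table of processed values names the 3 entrapment arrays decompression and the 3 decompression arrays entrapment, so the naming of these 2 groups against each other is not settled there. The names of the scanner files are used.

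In the DRGs miR-212 was the member with the largest difference, and it was lower after entrapment and after decompression but not after denervation. Its scaled signal was 114 on the sham array. The denervation arrays gave 110, 141 and 112, the entrapment arrays 36.7, 46.7 and 43.9, and the decompression arrays 49.7, 37.9 and 44.5. All 6 entrapment and decompression arrays lay below the sham array and below every denervation array, and the sham value lay within the range of the denervation arrays. Against sham, miR-212 fell by 1.43 ± 0.21 (SE) on the log2 scale after entrapment (2.69-fold lower, adjusted p in limma = 0.00184) and by 1.38 ± 0.21 after decompression (2.60-fold lower, adjusted p = 0.00238). After denervation the difference was 0.08 ± 0.21 (adjusted p = 0.89). The study's own criterion of a 2-fold change from sham, asked here of each array, was met on 3 of 3 arrays after entrapment and on 3 of 3 after decompression. The study itself does not name miR-212 among the miRNAs it reports as lower in the DRGs.

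miR-212 was the single member called against sham in the DRGs, 1 of 6 tested after entrapment, where 19.6% of all 219 tested miRNAs were called, and 1 of 6 after decompression, where 18.3% were. The 2-fold criterion likewise held for 1 of 6 members in each, beside 11.0% of all tested miRNAs after entrapment and 13.7% after decompression. After denervation 0 of 6 members were called or met the criterion, beside 0.457% and 1.37% of all tested miRNAs. Among the 219 differences, miR-212 was the 25th from the lowest after entrapment and the 27th from the lowest after decompression. A share of 1 in 6 is near the share over all tested miRNAs. Scaling each array to its median in place of its 75th percentile ended both calls, with differences of -0.58 (adjusted p = 0.0719) for entrapment and -0.52 (adjusted p = 0.098) for decompression. That scaling moved the median difference of all tested miRNAs from -0.11 to 0.73 after entrapment and from -0.13 to 0.73 after decompression.

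**Figure D1:**
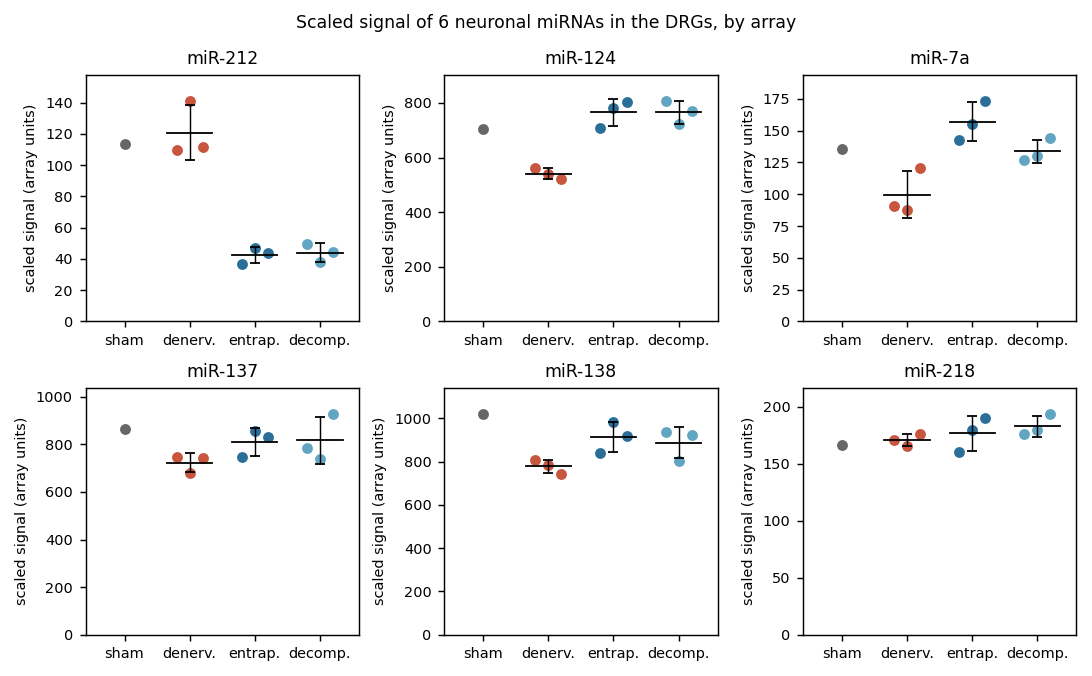
Scaled signal (array units, linear axis from 0) of the 6 members detected on all DRG arrays, by group; each point is 1 array, and the bar and whiskers are the mean and SD of 3 arrays. miR-212 lies between 36.7 and 49.7 on the 6 entrapment and decompression arrays and between 110 and 141 on the sham and denervation arrays, while miR-124 is lowest on the 3 denervation arrays.

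Between the injury groups, where 3 arrays face 3, miR-212 was 1.51 ± 0.15 lower on the log2 scale after entrapment than after denervation (adjusted p = 9.7e-05) and 1.46 ± 0.15 lower after decompression than after denervation (adjusted p = 0.000127). Both calls held under all 22 alternatives run, with differences from -1.95 to -0.86 and from -1.89 to -0.80. The leukocyte miRNAs, 5 of 5 of which were detected on all 10 DRG arrays, summed to 1026 in scaled signal on the sham array, 831 to 1315 after denervation, 633 to 747 after entrapment and 884 to 1094 after decompression. Their sum was lower after entrapment and overlapped the sham and denervation range after decompression. Of the 5, miR-142-3p, miR-142-5p and miR-150 were called lower after entrapment than after denervation, beside 41.1% of all tested miRNAs called. Between decompression and denervation 0 of the 5 were called, beside 36.5%. Their part in the result was not tested.

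miR-124, the neuronal marker, ran the other way in the DRGs. It was lower after denervation than after either of the other injuries. Its scaled signal was 705 on the sham array, 560, 540 and 522 after denervation, 709, 782 and 804 after entrapment, and 807, 723 and 769 after decompression. The 3 denervation arrays were the lowest of the 10, the sham array came next, and all entrapment and decompression arrays lay above it. miR-124 was 0.50 ± 0.08 (SE) higher on the log2 scale after entrapment than after denervation (1.41-fold, adjusted p in limma = 0.00128) and 0.50 ± 0.08 higher after decompression than after denervation (1.42-fold, adjusted p = 0.00132). These were the 7th and the 11th highest of the 219 differences. Against sham none of its differences was called. They were -0.38 ± 0.11 after denervation (adjusted p = 0.137), 0.12 ± 0.11 for entrapment (adjusted p = 0.466) and 0.12 ± 0.11 for decompression (adjusted p = 0.452).

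The difference of miR-124 between injury groups depended on scaling the arrays. With signals as deposited it shrank to 0.06 (adjusted p = 0.76) between entrapment and denervation and to 0.07 (adjusted p = 0.696) between decompression and denervation, while the median of all tested miRNAs moved from -0.15 to -0.59 and from -0.15 to -0.58. It stayed called under the other 21 alternatives in each comparison. Of the sensory neuron miRNAs miR-183, miR-96 and miR-182, all 3 detected on all 10 DRG arrays, miR-183 and miR-96 were called higher than after denervation in both comparisons. miR-182 was not, at -0.11 ± 0.10 for entrapment (adjusted p in limma = 0.388) and -0.06 ± 0.10 for decompression (adjusted p = 0.624). Their summed scaled signal was 2521 on the sham array, 2135 to 2419 after denervation, 2522 to 2848 after entrapment and 2641 to 2818 after decompression, so that the denervation arrays again lay lowest without overlap in a sum of which miR-96 made up the most. Their part in the miR-124 result was not tested.

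miR-7a followed the pattern of miR-124 at a lower precision. Its scaled signal in the DRGs was 136 on the sham array, 91.0, 87.6 and 121 after denervation, 143, 155 and 173 after entrapment, and 127, 130 and 144 after decompression. The denervation arrays were again the 3 lowest, and the entrapment arrays lay above sham, while the decompression arrays lay on both sides of it. miR-7a was 0.66 ± 0.14 (SE) higher on the log2 scale after entrapment than after denervation (1.58-fold, adjusted p in limma = 0.00541), the 3rd highest of 219 differences, and 0.43 ± 0.14 higher after decompression than after denervation (1.35-fold, adjusted p = 0.0373). The second call was lost under 9 of 22 alternatives, among them leaving out denervation 1 (adjusted p = 0.131), denervation 2 (0.107), entrapment 2 (0.0512), decompression 1 (0.0594), decompression 2 (0.0744) or decompression 3 (0.117). Both were lost with signals as deposited, at differences of 0.22 (adjusted p = 0.311) and 0.00 (adjusted p = 0.99). The processed values of the authors gave an adjusted p of 0.0539 in limma under the name entrapment. Their entrapment columns hold the arrays that the scanner files name decompression, so that value does not bear on the first call. Against sham the differences were not called, the largest being -0.46 ± 0.19 after denervation (adjusted p = 0.29).

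Entrapment against denervation in the DRGs thus gave 3 called members of 6 tested, 1 lower and 2 higher, where 41.1% of all tested miRNAs were called, 72 lower and 18 higher. Decompression against denervation gave the same count, 3 of 6, where 36.5% were called, 61 lower and 19 higher. The median difference over the 6 members was 0.20 and 0.18, beside -0.15 and -0.15 over all 219.

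miR-138, which acts at dendritic spines, gave 1019 on the sham array in scaled signal, 806, 784 and 745 after denervation, 842, 982 and 919 after entrapment, and 936, 804 and 924 after decompression. The sham array was the highest of the 10, and the denervation and entrapment arrays did not overlap. None of its 6 differences was called, with -0.39 ± 0.13 between denervation and sham (adjusted p = 0.195) and 0.23 ± 0.09 between entrapment and denervation (adjusted p = 0.0773). The latter became a call with median scaling (0.87, adjusted p = 0.00179), with the percentile over the other set of miRNAs (0.26, adjusted p = 0.034), with loess scaling (0.21, adjusted p = 0.0468) and without entrapment 1 (0.29, adjusted p = 0.0489), and turned to -0.21 with signals as deposited.

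miR-137, the neurodevelopmental miRNA, had 865 on the sham array, 747, 679 and 744 after denervation, 746, 858 and 829 after entrapment, and 785, 739 and 926 after decompression. Its groups overlapped except that sham lay above all denervation and entrapment arrays. The 6 log2 differences ran from -0.26 to 0.17 with adjusted p of at least 0.227.

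miR-218, the motor neuron miRNA, varied least. It had 167 on the sham array, 171, 165 and 176 after denervation, 160, 179 and 190 after entrapment, and 176, 179 and 193 after decompression, with overlapping injury groups. The 6 log2 differences ran from 0.03 to 0.13 with adjusted p of at least 0.376, and the 95% confidence interval of entrapment against denervation ran from -0.15 to 0.24.

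**Figure D2:**
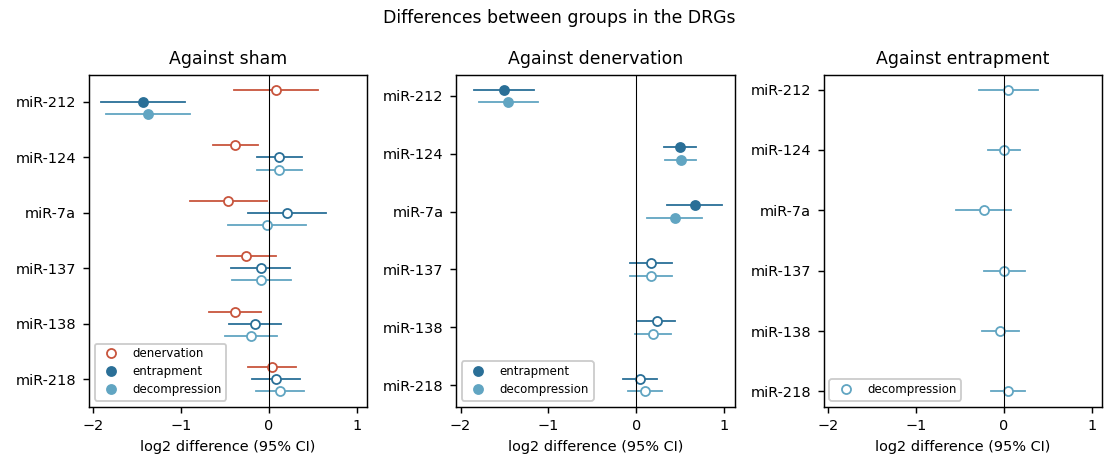
Log2 differences (x axis) of the 6 tested members between groups in the DRGs, with 95% confidence intervals from limma; the panels compare with sham, denervation and entrapment, and filled points passed an adjusted p of 0.05. miR-212 stands at -1.43 and -1.38 against sham and at -1.51 and -1.46 against denervation, and no member passed between decompression and entrapment.

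Entrapment and decompression were not separated by any member. In the DRGs 0 of 6 were called, beside 0% of all tested miRNAs, and 0 of 3 in soleus, beside 0% as well. At an unadjusted p under 0.05 limma found 9 of 219 miRNAs in the DRGs and 7 of 173 in soleus. The difference of miR-212 between decompression and entrapment in the DRGs was 0.05 with a 95% confidence interval from -0.29 to 0.39 on the log2 scale, and that of miR-124 was 0.00 with an interval from -0.18 to 0.18. Exchanging the names of these 2 groups would turn the sign of the differences and leave the width of the intervals.

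miR-132, the cluster partner of miR-212 with the same seed, was detected on 0 of 20 arrays. Its scaled signal in the DRGs was 4.45 on the sham array, 4.58, 4.33 and 2.42 after denervation, -1.01, 0.389 and 1.46 after entrapment, and 2.25, 0.295 and 0.301 after decompression. All these values are undetected signal. The floor in the DRGs, the median over arrays of the lowest positive scaled signal among detected miRNAs, was 2.28. Undetected values of miR-132 lay on both sides of it. The median signal as deposited of the 110 miRNAs detected on no DRG array parted the same way, from -1.77 to -0.66 on the sham and denervation arrays and from -6.23 to -3.76 on the others. miR-153 was detected in the DRGs on denervation 3, at 5.11, and on the sham array, at 3.66, and was too dim to be tested. Its other 8 DRG arrays gave -2.22 to 4.65.

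In soleus muscle, which holds motor nerve endings but no neuronal cell bodies, miR-212 was the one member detected on all 10 arrays. Its scaled signal on the sham array was 181.7, followed by 195, 284 and 320 after denervation, 102, 100 and 148.8 after entrapment, and 160, 128.5 and 146 after decompression. The 3 denervation arrays were the highest, the sham array came next, and the 6 entrapment and decompression arrays were the lowest, although denervation 1, at 195, lay close to sham. miR-212 was 1.18 ± 0.28 (SE) lower on the log2 scale after entrapment than after denervation (2.26-fold lower, adjusted p in limma = 0.0276), which made 1 of 3 members called where 11.6% of the 173 tested miRNAs were. After decompression it was 0.85 ± 0.28 lower than after denervation, which was not called (adjusted p = 0.0808), so that 0 of 3 members were called where 13.9% of all were.

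The soleus call of miR-212 was fragile. It was lost under 12 of 22 alternatives, with adjusted p from 0.0201 to 0.995 over all of them and the same direction in every one. Leaving out denervation 2 gave an adjusted p of 0.117, entrapment 1 gave 0.0874, entrapment 2 gave 0.0997, entrapment 3 gave 0.0526 and decompression 1 gave 0.0525. The leukocyte miRNAs, 5 of 5 detected in soleus and 4 on all its arrays, summed to 821 on the sham array, 628 to 1014 after denervation, 460 to 573 after entrapment and 416 to 574 after decompression. Only the sum and miR-150 parted the arrays in this way, and the other members overlapped. miR-223, for one, gave 69.9 on the sham array and 66.6 to 98.0 after entrapment. Of the 5, 0 were called between entrapment and denervation, and 1, miR-223, was lower after decompression than after denervation. The muscle miRNAs, 5 of 5 detected, summed to 207581 on the sham array and to 59380 to 360891 over the injury arrays, with overlap between the injury groups. The part of either list in the result was not tested.

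Against sham in soleus, miR-212 differed by 0.52 ± 0.40 on the log2 scale after denervation (adjusted p in limma = 0.371), by -0.66 ± 0.40 with entrapment (adjusted p = 0.248) and by -0.33 ± 0.40 with decompression (adjusted p = 0.562). None was called, and none met the 2-fold criterion. The study, in contrast, lists miR-212 as downregulated in soleus both after entrapment and after decompression, a listing that these values did not reproduce. The differences of entrapment and decompression from sham turned positive with signals as deposited (0.97 and 1.02), with the percentile over all miRNAs (0.15 and 0.46) and with the processed values of the authors (1.53 and 0.39). In soleus 0 of 3 members were called against sham after denervation, entrapment or decompression, beside 26.6%, 29.5% and 31.8% of all tested miRNAs. The 2-fold criterion also held for 0 of 3 members in each, beside 34.1%, 38.2% and 40.5% of all tested miRNAs.

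**Figure D3:**
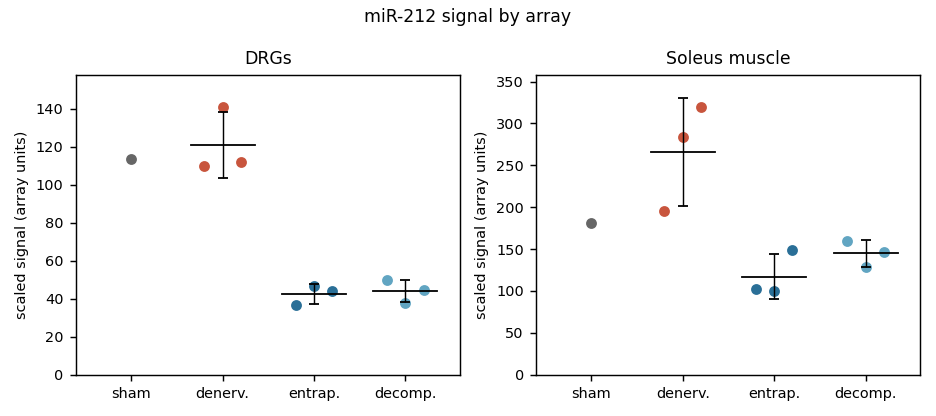
Scaled signal of miR-212 (array units, linear axis from 0, scaled within each tissue) by group in the DRGs and in soleus; each point is 1 array, and the bar and whiskers are the mean and SD of 3 arrays. In both tissues the entrapment and decompression arrays lie below the sham and denervation arrays, from 36.7 to 49.7 against 110 to 141 in the DRGs and from 100 to 160 against 181.7 to 320 in soleus.

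miR-7a and miR-218 were dim in soleus, each detected on 7 of 10 arrays and on neither the sham array, denervation 3 nor decompression 2. miR-7a had 7.19 on the sham array, 35.3, 24.0 and 3.66 after denervation, 16.1, 12.4 and 21.2 after entrapment, and 17.3, 7.80 and 18.5 after decompression. miR-218 had 8.58 on the sham array, 53.7, 25.4 and 4.82 after denervation, 9.65, 14.3 and 36.3 after entrapment, and 25.2, 12.4 and 53.1 after decompression. Both ranged over the whole span within the denervation group, and the injury groups overlapped. Sham was not detected, so a fold against it can only be a bound, and it is given for entrapment, where 3 of 3 arrays were detected. There miR-7a was at least 2.25-fold and miR-218 at least 1.99-fold higher than sham. Denervation and decompression, with 2 of 3 arrays detected each, are given no fold. None of the differences from sham was called in limma, with adjusted p from 0.457 to 0.562 for miR-7a and from 0.37 to 0.605 for miR-218. Without denervation 3 the difference of miR-7a between denervation and sham was called, at 1.96 on the log2 scale (adjusted p = 0.0426).

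**Figure D4:**
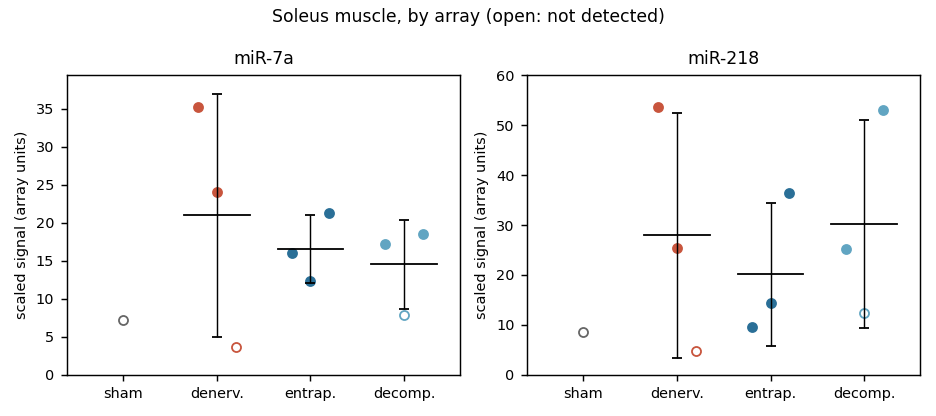
Scaled signal (array units, linear axis from 0) of miR-7a and miR-218 in soleus by group; each point is 1 array, open points were not detected, and the bar and whiskers are the mean and SD of 3 arrays. The sham array, denervation 3 and decompression 2 are the undetected arrays for both miRNAs, and values within the denervation group run from 3.66 to 35.3 for miR-7a and from 4.82 to 53.7 for miR-218.

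miR-124, miR-132, miR-137, miR-138 and miR-153 were detected on 0 of 10 soleus arrays. The scaled signal of miR-124 there ran from -12.2 to -0.404 and that of miR-137 from -10.6 to -1.27, all below the floor of 2.86 in soleus. miR-138 reached 1.22 at most. These values say that the miRNAs were not detectable in whole muscle, not that they were absent from its nerve endings.

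On 1 scale over all 20 arrays, 5 of the 6 tested members were brighter in the DRGs than in soleus over the 3 injury groups, and 1 was brighter in soleus. miR-124 was at least 273-fold higher in the DRGs, miR-137 at least 312-fold and miR-138 at least 343-fold, each detected on 10 of 10 DRG arrays and on no soleus array. These miRNAs were tested only through their DRG arrays, and all their soleus values stood at the floor without spread. Their calls therefore restate the detection, and no p is given for them. miR-7a was 3.62 ± 0.35 (SE) higher on the log2 scale (12.3-fold, adjusted p = 1.54e-07) and miR-218 was 3.64 ± 0.41 higher (12.5-fold, adjusted p = 8.64e-07), with no overlap between the tissues on any array. miR-212 was instead 0.92 ± 0.13 lower in the DRGs (1.89-fold higher in soleus, adjusted p = 7.41e-06), with values from 5.45 to 7.37 in the DRGs and from 6.29 to 8.05 in soleus, which overlap. On the sham arrays alone, 1 against 1, the difference of miR-212 was -0.28 on the same scale. All 6 tested members were called, beside 82.5% of the 234 miRNAs tested, in either direction, so a difference between the tissues was the rule on this array. The split of all these calls by direction is not given here, so the directions of the members stand as values only.

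**Figure D5:**
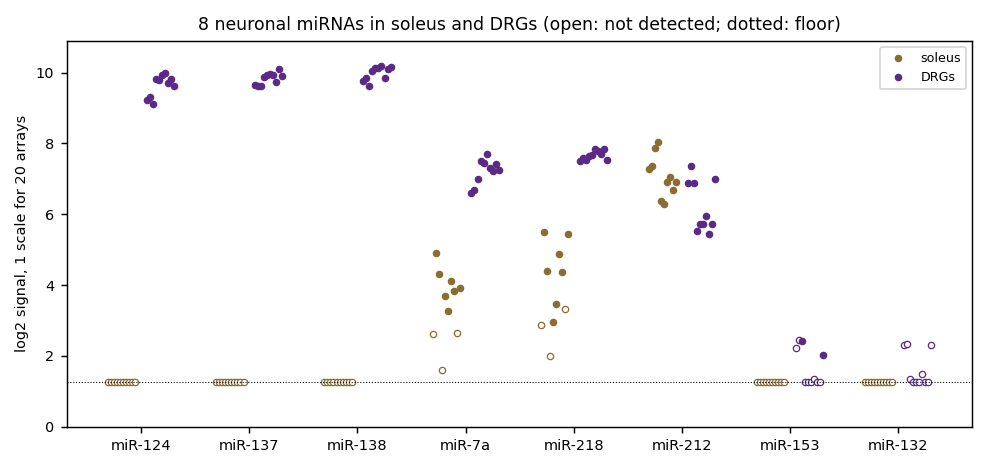
Log2 signal of the 8 members on 1 scale over 20 arrays; soleus arrays are on the left and DRG arrays on the right of each name, open points were not detected, and the dotted line is the floor. miR-124, miR-137 and miR-138 lie at the floor on all soleus arrays and above 9 in the DRGs, while the values of miR-212 overlap between the tissues.

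Whether an injury changed a member differently in soleus and DRGs was tested by an interaction term. Among miR-212, miR-7a and miR-218, the members detected in both tissues, 0 of 18 such differences were called by limma. For miR-212 the change from denervation to entrapment differed by -0.14 ± 0.31 on the log2 scale between DRGs and soleus (adjusted p = 0.856), so the larger fall in the DRGs was not shown to differ from that in soleus. Of all 234 miRNAs, 23.5%, 27.4% and 27.4% were called for the difference between the tissues of denervation, entrapment and decompression against sham, 8.97% and 11.1% for entrapment and decompression against denervation, and 0% for decompression against entrapment.

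Of the star strands and close relatives of the members, miR-124*, miR-138*, miR-7a*, miR-7b and miR-218* were on the array. In the DRGs 1 of these 5 could be tested, miR-138*, the passenger strand of miR-138. It was detected on the sham array, at 9.19 in scaled signal, and on denervation 1 to 3 at 11.1, 7.24 and 5.11, and on none of the 6 entrapment and decompression arrays, where its signal ran from -4.13 to -0.285. It was therefore tested only through the sham and denervation arrays, and the other 6 arrays stood at the floor without spread. Its calls against sham restate that detection, and no p is given for them. As a lower bound, its fall from sham was 3.58-fold with entrapment and 4.0-fold with decompression. miR-138 itself was not called against sham in either group. The difference between the strands was not tested. The signals of miR-138* lie near the floor, where the undetected signal of the same arrays parts in the same direction. In soleus 1 of the 5 could be tested, with 0 called in all 6 comparisons.

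Beside the members, 22 of 23 further miRNAs known from nervous tissue were on the array. In the DRGs 16 of them were tested, and 0 were called after denervation against sham. After entrapment 3 of 16 were lower and 0 higher than sham, beside 19.6% of all 219 called, and after decompression 4 were lower and 0 higher, beside 18.3%. miR-9, a miRNA of neural progenitors and neurons, fell by 1.23 ± 0.16 (SE) on the log2 scale with entrapment (adjusted p in limma = 0.000971) and by 1.25 ± 0.16 with decompression (adjusted p = 0.00087). miR-384-3p and miR-487b were the other 2 after entrapment, with miR-346 added after decompression. In the DRGs miR-384-3p and miR-346 were detected on the sham and denervation arrays only and were tested through these alone. Their calls, here and against denervation, therefore restate that detection. Against denervation, 4 of the 16 were higher and 3 lower after entrapment, beside 41.1% of all 219 called, and 4 higher and 4 lower after decompression, beside 36.5%. These counts are near the shares over all tested miRNAs. The higher ones included miR-183, by 0.48 ± 0.08 after entrapment (adjusted p = 0.00132), and miR-128, by 0.41 ± 0.08 (adjusted p = 0.00346). The median log2 difference of the 16 from sham was -0.19 after denervation, -0.07 after entrapment and -0.14 after decompression, beside -0.02, -0.11 and -0.13 over all 219. In soleus 3 of the 22 were tested and 1 was called, miR-487b, which fell by 1.77 ± 0.37 between denervation and entrapment (adjusted p = 0.016) and by 1.64 ± 0.37 between denervation and decompression (adjusted p = 0.0227). Of all 173 tested soleus miRNAs, 11.6% were called between entrapment and denervation and 13.9% between decompression and denervation. Between the tissues 14 of 17 were higher in the DRGs and 1, miR-128, was higher in soleus, beside 82.5% of all 234 tested miRNAs called in either direction. Of these 14, miR-9, miR-9*, miR-129*, miR-183, miR-383, miR-384-3p, miR-384-5p, miR-433 and miR-485 were detected on 0 soleus arrays. They were tested only through the DRG arrays, so their calls between the tissues restate that detection.

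Over the 10 DRG arrays the members fell into different patterns, given here as Pearson correlations of log2 signal that share the same arrays, scaling and groups. miR-124 ran against miR-212 (r = -0.81, n = 10 arrays) and with miR-7a (r = 0.81), and miR-137 ran with miR-138 (r = 0.81). The tested miRNAs most like miR-212 were miR-125b* (r = 0.99) and miR-324-3p (r = 0.98), and those most like miR-124 were miR-551b (r = 0.99) and miR-34a (r = 0.96). For miR-7a they were miR-500 (r = 0.90) and miR-96 (r = 0.86), for miR-137 miR-361 (r = 0.86) and miR-138 (r = 0.81), for miR-138 miR-185 (r = 0.88) and miR-137 (r = 0.81), and for miR-218 miR-369-5p (r = 0.87) and miR-24 (r = 0.86). In soleus the most like miR-212 were miR-347 (r = 0.90) and miR-338* (r = 0.89). The sham and denervation arrays stood apart from the other 6 without overlap in 75 of 219 tested DRG miRNAs (34.2%), miR-124 and miR-212 among them, and in 25 of 173 in soleus (14.5%), miR-212 among them.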

How the data were processed

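The files come from 20 one-colour Agilent rat miRNA arrays, 10 of soleus and 10 of DRGs. Per the labels, Agilent Feature Extraction 9.5.3 was used by the authors; the deposited value of a miRNA is its total gene signal, a linear intensity after background subtraction that was not normalized between arrays, and another deposited column holds a detection call of 0 or 1. Labelling is given as Cy3-CTP amplification in the labels but as pCp-Cy3 ligation in the paper's text. A table of processed values from the authors served as an alternative. Over miRNAs brighter than 50 it equalled the intensity over 1 constant per array, within 1%, for 93.9% to 100% of values. In the DRGs it exchanges the names of entrapment and decompression. As an alternative it was used under its own names, without undoing the exchange.

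Signals were divided by the 75th percentile of their array and multiplied by the median of these percentiles, taken in soleus over the 108 miRNAs detected everywhere, in the DRGs over all 348 and for both tissues together over 102. Values below a floor, the median over arrays of the lowest positive scaled signal among detected miRNAs, were raised to it before taking log2. Group means were compared with limma 3.58.1 (lmFit, eBayes; R 4.3.3) in 1 fit per tissue with 6 residual degrees of freedom, and in 1 fit of all 20 arrays between the tissues, averaged over the 3 injury groups. Tests were two-sided, with Benjamini-Hochberg adjustment over all tested miRNAs. The fit takes the spread of the injury groups for the lone sham array. Where no array of a group detected a miRNA, the fold is a bound, taken against the higher of the lowest detected signal and the miRNA's own signal on each array. The code was tested on simulated data. Sequences were read with Python 3.11.15, and figures were drawn with matplotlib 3.10.9.

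All 8 members are named whatever their values, as are the 2 miRNAs most correlated with each member detected on 8 or more arrays. Members and lists were chosen with earlier results of these data known. Alternative scalings, filters, a pseudocount, the processed values, a replicate block and leaving out single arrays were tried. The 2 miRNAs named differently between files, and the real-time PCR of the study, were not analysed here. The number of arrays limits the precision.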

Additional observations from a re-analysis of the deposited data

Results flagged for a closer look

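For miR-124, the change between denervation and entrapment differed between the tissues in the interaction test, by 0.63 ± 0.15 (SE) on the log2 scale for DRGs minus soleus (adjusted p in limma = 0.0146), and that between denervation and decompression also by 0.63 ± 0.15 (adjusted p = 0.0185). miR-124 was detected on 0 of 10 soleus arrays, all of which stand at the floor, so the soleus side of both differences is 0 by construction and the test restates the DRG difference on the 20-array scale. Every group held 3 arrays or 1, so no group was tested for an array that stands apart.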

How the results depend on the processing

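Over 331 alternatives to 20 counts of members, 289 stayed within 1.5 times the main count and 42 moved. In soleus, the 1 member called between entrapment and denervation (miR-212) became 0 without scaling, with loess scaling, with median scaling, with the processed values, with all miRNAs in the percentile, with the replicate block and with only the arrays of both groups, and leaving out 1 array gave 0 to 1. Denervation against sham, 0 in the main setting, gave 0 to 1 when 1 array was left out. The 2-fold criterion, met by 0 members in soleus, was met after denervation by 2 when asked of the mean of the 3 arrays and by 1 in the processed values. After entrapment it was met by 1 with the mean, 2 without scaling, 1 with median, 2 with quantile and 2 with loess scaling, 1 with all miRNAs in the percentile and 3 in the processed values. After decompression it was met by 1 with the mean, 2 without scaling, 2 with loess scaling and 1 with all miRNAs in the percentile.

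In the DRGs, denervation against sham, with 0 calls, gave 2 with loess scaling (miR-124 at -0.45 and miR-138 at -0.50, adjusted p in limma = 0.0344 for both) and 1 without the filter on dim miRNAs. Entrapment against sham, with 1 call, gave 5 with median scaling, 2 with quantile scaling and 2 without the filter. Decompression against sham, with 1 call, gave 5 with median scaling and 2 without the filter. Entrapment and decompression against denervation, with 3 calls each, gave 1 without scaling and 6 with median scaling, and leaving out 1 array gave 3 to 4 and 2 to 3. The 2-fold criterion, met by 1 member, was met by 0 with median scaling in both comparisons with sham and by 0 with quantile scaling after decompression. The differences between tissues in an injury, with 0 calls, gave 2 with quantile scaling and 3 with all miRNAs in the percentile. The cause of these moves was not tested.

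Differences that turned sign were, without scaling, miR-212 in soleus after entrapment (0.97) and decompression (1.02) against sham, miR-124 in the DRGs after entrapment (-0.24) and decompression (-0.22) against sham and miR-138 between entrapment and denervation (-0.21). The soleus differences of miR-212 from sham also turned with all miRNAs in the percentile (0.15 and 0.46) and in the processed values (1.53 and 0.39). In the DRGs miR-212 turned between denervation and sham without denervation 2, with a range of -0.038 to 0.14 over single arrays left out. Between decompression and entrapment miR-212 turned in the processed values (-0.042), where the names of these 2 groups are exchanged, which by itself turns the sign. It also turned without entrapment 1 and without decompression 1, with a range of -0.049 to 0.16 over single arrays left out. None of these was called in the main setting. Of 33 further differences, none called, 63 of 682 alternatives turned the sign and 15 gave a call, 13 of them under median scaling. In 5 of the 15, all under median scaling, the sign had also turned (miR-137 and miR-138 after entrapment and decompression and miR-7a after decompression, against sham in the DRGs). The calls between the tissues held in all 6 members under every alternative run; loess scaling, which needs 1 sham reference, was not run there.

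The deviations of arrays with the same number in different injury groups correlated at -0.47 to 0.20 in soleus and at -0.12 to 0.48 in the DRGs. Their mean was -0.08 in soleus, beside 0.05 for other numbers, and 0.16 in the DRGs, beside -0.08. Whether arrays of the same number share an animal or their handling is not given by the labels. With the replicate block miR-124 differed between entrapment and denervation in the DRGs by 0.50 (adjusted p = 0.00519) and miR-212 in soleus by -1.18 (adjusted p = 0.0642). The count of calls stayed at 3 of 6 in both DRG comparisons with denervation.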
